A study of Mus musculus with 24 samples.

Results

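The interleukin 1 (IL-1) family and its receptors were described across bone marrow-derived macrophages (BMDMs) and Th2 cells. The set was chosen by symbol and held 10 of the 23420 genes counted: the agonist ligands Il1a, Il1b, Il18 and Il33, the antagonist Il1rn and the binding protein Il18bp, and the receptor genes Il1r1, Il1r2, Il1rap and Il18r1. IL-1α and IL-1β are cytokines that start inflammation by binding the signalling receptor IL-1R1, which then recruits the accessory chain encoded by Il1rap and signals through MyD88 and NF-κB. The IL-1 receptor antagonist (Il1rn) occupies IL-1R1 without signalling, and IL-1R2 is a decoy that binds ligand but does not signal. IL-18 is held back by its binding protein, and macrophages are a main source of IL-1β after Toll-like receptor stimulation, whereas helper T cells respond to IL-1, IL-18 and IL-33 through such receptors.

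RNA was sequenced from 24 libraries of C57BL/6 mice in 10 groups. In the Tet cohort, Tet1, Tet2 and Tet3 were deleted together by a tamoxifen-inducible Cre-ERT2 (TET iTKO), in the Tdg cohort Tdg was deleted in the same way (TDG iKO), and each cohort had its own wild type (WT) mice; control mice, per the study's methods, also received tamoxifen. The floxed mice carried a Rosa26 reporter of Cre activity (EYFP in the Tet cohort, H2B-EGFP/GPI-mCherry in the Tdg cohort). BMDMs were grown from marrow with M-CSF and left at 0 h or treated for 6 h with Kdo2-lipid A (KLA), a pure agonist of TLR4, with 2 libraries for each cohort, genotype and time. Th2 cells were grown from naive CD4+ T cells of WT and TDG iKO mice with anti-CD3, anti-CD28, IL-4 and an antibody against IFN-γ, then expanded in IL-2, with 4 libraries of each genotype. The mice were adults.

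Reads assigned to genes numbered 4982950 to 26657729 per library, with a median of 14853861. Th2 replicates 3 and 4 of each genotype differed by little more than sampling noise (mean chi-square per gene of 1.34 in TDG iKO and 1.51 in WT, where 1 is noise alone and other pairs of Th2 replicates reached 21.3 to 218), so they were summed and counted as 1 sample, which left 3 samples of each genotype. Since the labels do not say whether replicates came from separate animals, the p-values measure the spread between these samples only. Tdg was close to 0 in every BMDM library, WT included (0 to 2.96 normalised read counts), and Tet2 and Tet3 were not lower in TET iTKO than in WT of the same cohort (Tet2 473 to 564 in WT and 654 to 696 in TET iTKO at 0 h). These values therefore do not check the deletions, and the reason was not tested. The study itself reports efficient deletion, measured on the floxed exons by qRT-PCR in differentiated Th2 cells. Its supplement also lists qRT-PCR of Tet1, Tet2, Tet3 and Tdg transcripts among its BMDM results, without values in the text used here. In BMDMs, all 7 macrophage markers were detected in each group. The T cell list of 5 genes reached at most 365 summed normalised counts in BMDMs against 18077 to 25973 in Th2 cells. Of the 7 macrophage markers, Csf1r and Mertk were at 0 in all Th2 libraries, and the other 5 were above 0. That list summed to 147 to 808 in Th2 cells, highest in replicates 3 and 4 of each genotype, against 287900 or more in BMDMs. The 2 cell types were scaled in separate fits, so these sums are not on 1 scale.

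Il1a and Il1b lie on the minus strand of chromosome 2 in the mm9 build, Il1a at 129125346 to 129135708 and Il1b at 129190306 to 129196875, and Il1rn lies on the plus strand of the same chromosome at 24192373 to 24207014. Il1r1 (40281925 to 40373043), Il1r2 (40141613 to 40182064) and Il18r1 (40522397 to 40557699) are on the plus strand of chromosome 1, where the other family receptors Il1rl1 and Il18rap flank Il18r1. Il18 is on chromosome 9, Il18bp on chromosome 7, Il1rap on chromosome 16 and Il33 on chromosome 19. The 250 bases before the start sites of Il1a and Il1b are shown because these were the members with the largest response to KLA in both cohorts. Both are RefSeq sequences (GRCm38.p6), each of which matched mm9 once, at chr2:129135709-129135958 and chr2:129196876-129197125 on the minus strand. Capitals mark the letters TATAAA.
Il1a: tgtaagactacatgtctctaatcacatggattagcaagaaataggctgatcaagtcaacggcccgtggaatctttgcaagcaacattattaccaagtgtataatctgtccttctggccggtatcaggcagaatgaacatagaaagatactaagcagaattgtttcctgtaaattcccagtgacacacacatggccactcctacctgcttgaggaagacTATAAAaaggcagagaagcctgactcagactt
Il1b: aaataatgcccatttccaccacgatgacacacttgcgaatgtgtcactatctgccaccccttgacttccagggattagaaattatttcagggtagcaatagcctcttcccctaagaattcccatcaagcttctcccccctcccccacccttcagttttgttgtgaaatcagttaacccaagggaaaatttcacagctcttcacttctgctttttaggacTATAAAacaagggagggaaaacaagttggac

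The letters TATAAA began 32 bases before the start of Il1a and 31 bases before that of Il1b, on the strand shown. On the strand of the gene, they occurred in 7.59% of 32851 such windows, and in the windows of 3 of the 10 members (Il1a, Il1b and Il33). The Il1a window also held the AP-1 letters TGANTCA (6.75% of all windows) and the PU.1 letters GAGGAA (23.3%), neither of which overlapped TATAAA, while the Il1b window held neither. CG, the dinucleotide that TET enzymes act on when methylated, occurred 3 times in the Il1a window and 2 times in the Il1b window, against a median of 6 over all windows, of which 37.8% held at most 3. The first windows of Il18 and Il1rn held 1, those of Il1r1 and Il18r1 held 3, those of Il18bp and Il33 held 4, and those of Il1r2 and Il1rap held 14 and 30. The NF-κB consensus was found in 7.25% of windows and, among the members, only in that of the second start site of Il1r1. These are matches of letters and no evidence of binding or methylation was measured here.

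At 0 h, the ligand genes Il1a and Il1b and the receptor gene Il1r1 were higher in TET iTKO BMDMs, while Il18, the inhibitor genes and Il1rap were not called. The DESeq2 test called 3 of the 10 members higher and none lower at an adjusted p under 0.05, where 6.1% of the 15028 genes tested were called, 3.56% higher and 2.54% lower. The other 7 members comprised 4 detected genes that were not called and Il1r2, Il18r1 and Il33, which were below detection (fewer than 2 libraries with at least 10 counts). The 7 detected members had a median log2 fold change of 0.18, against 0.0010 over all genes. Normalised read counts below were divided by size factors estimated over the 16 BMDM libraries.

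Il1b, which encodes the secreted pyrogenic cytokine, had 26.1 and 14.6 normalised counts in WT and 186 and 381 in TET iTKO at 0 h. The WT and TET iTKO libraries did not overlap, and the lower TET iTKO library was above the higher WT library. The log2 fold change was 3.82 (SE 0.53, adjusted p 1.91e-10 by DESeq2), or 14.1-fold with a 95% interval of 6.82 to 29.1, and it passed the threshold in all 10 alternatives. At 6 h, Il1b had 1767 and 1944 in WT and 4179 and 7359 in TET iTKO, and the groups again did not overlap. The log2 fold change at 6 h was 1.62 (SE 0.50, adjusted p 0.0215 by DESeq2), or 3.08-fold with a 95% interval of 1.57 to 6.04. The call at 6 h was lost when WT replicate 1, WT replicate 2 or TET iTKO replicate 2 was left out (DESeq2 adjusted p 0.281, 0.161 and 0.502), with log2 fold changes of 1.56, 1.70 and 1.16, and in edgeR with robust dispersions (adjusted p 0.0997).

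WT BMDMs of the Tdg cohort had 180 and 183 normalised counts of Il1b at 0 h, all above the WT libraries of the Tet cohort and just below the lower TET iTKO library. The cohorts were separate experiments, and cohort and preparation cannot be told apart.

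Il1a, whose product acts as an alarm signal from damaged cells, had 50.5 and 85.2 in WT and 125 and 108 in TET iTKO at 0 h. The groups did not overlap but were separated by a small gap, and the log2 fold change was 0.74 (SE 0.21, adjusted p 0.00727 by DESeq2). This call was kept in 5 of 10 alternatives and was lost in edgeR (adjusted p 0.0842, or 0.0919 with robust dispersions), in a fit of the 4 libraries alone (DESeq2 adjusted p 0.192) and without WT replicate 1 or TET iTKO replicate 1 (DESeq2 adjusted p 0.497 and 0.136). At 6 h, Il1a had 1288 and 1523 in WT and 2970 and 3439 in TET iTKO. The TET iTKO libraries were both well above WT, with a log2 fold change of 1.18 (SE 0.16, adjusted p 3.95e-11 by DESeq2), and the adjusted p stayed at 0.00391 or below over the 10 alternatives tried.

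Il1r1, the signalling receptor of both IL-1 ligands, had few counts in BMDMs. At 0 h the raw counts were 21 and 57 in WT and 131 and 217 in TET iTKO, or 17.7 and 34.7 against 127 and 155 normalised counts. Every TET iTKO library was above every WT library, and the log2 fold change was 2.41 (SE 0.42, adjusted p 8.88e-07 by DESeq2), or 5.31-fold with a 95% interval of 3.00 to 9.39. At 6 h the raw counts were 8 and 7 in WT and 37 and 59 in TET iTKO. The libraries did not overlap at 6 h either, and the log2 fold change was 2.54 (SE 0.55, adjusted p 0.000237 by DESeq2). Il1r1 passed the threshold in all 10 alternatives at each time.

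Neither inhibitor passed the test. Il1rn, the receptor antagonist, had 4977 and 6745 normalised counts in WT and 7026 and 6283 in TET iTKO at 0 h, and 7753 and 11776 against 11257 and 11007 at 6 h. The groups overlapped at both times, and the log2 fold changes were 0.18 (SE 0.17, adjusted p 0.717 by DESeq2) and 0.18 (SE 0.17, adjusted p 0.722 by DESeq2). The 95% interval of the fold at 0 h ran from 0.903 to 1.42, and Il1rn was called higher at 6 h without WT replicate 2 (DESeq2 adjusted p 0.0306). Il18bp, which neutralises IL-18, had 2202 to 3351 normalised counts in WT and 2647 to 3012 in TET iTKO at 0 h, with overlapping groups at both times and a log2 fold change within its SE.

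Il18 did not pass the test at either time. It had 80.4 and 103 normalised counts in WT and 50.1 and 62.1 in TET iTKO at 6 h, where the groups did not overlap, with a log2 fold change of -0.71 (SE 0.33, adjusted p 0.244 by DESeq2). Il1rap, the accessory chain shared by the IL-1 and IL-33 receptors, had 268 and 274 in WT and 325 and 336 in TET iTKO at 6 h. These libraries did not overlap, and the log2 fold change was 0.27 (SE 0.19, adjusted p 0.542 by DESeq2). At 6 h the test again called 3 of the 10 members higher and none lower, and these were the same genes as at 0 h, Il1a, Il1b and Il1r1, with 5.07% of all genes called, 2.49% higher and 2.58% lower. Over the detected members, 3 at 0 h and 4 at 6 h had groups that did not overlap with TET iTKO higher, and 1 at 6 h (Il18) with TET iTKO lower, where 24.8% and 22.4% of all genes had TET iTKO higher without overlap and 48.3% and 42.6% did not overlap in either direction.

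**Figure D1:**
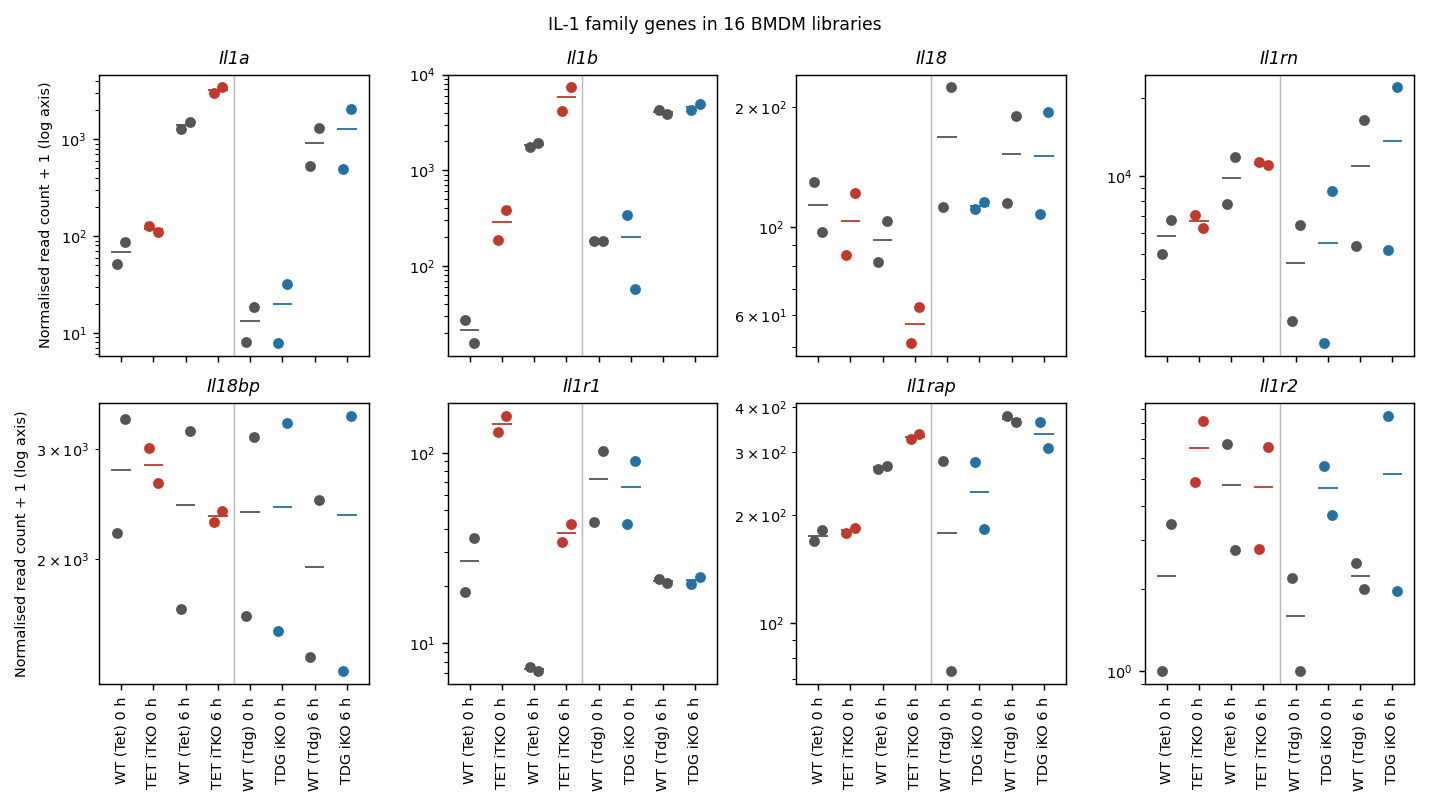
Normalised read counts plus 1 (log axis) of 8 members in the 16 BMDM libraries, with 1 point per library, a line at the mean of each group, and WT in grey, TET iTKO in red and TDG iKO in blue. Il1b and Il1r1 are higher in both TET iTKO libraries than in both WT libraries of the Tet cohort at each time. The TDG iKO points overlap those of their WT, except for Il1r2 at 0 h, which was below detection (normalised counts of 1.18 and 0 in WT, 4.58 and 2.70 in TDG iKO).

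Markers of other cell types also differed between TET iTKO and WT libraries. The summed normalised counts of the 7 neutrophil markers found in the files were 298 to 446 in WT and 794 to 1500 in TET iTKO at 0 h, and 440 to 442 and 931 to 1348 at 6 h, with Ltf, Ngp and S100a8 called higher at both times and Retnlg at 0 in WT. The 7 immature myeloid markers summed to 192 to 450 in WT and 311 to 1086 in TET iTKO at 0 h, with 1 of 7 (Cd34) called higher. The 4 B cell markers summed to 19.5 to 23.5 and 69.7 to 271, with 3 of 4 called higher, and the 5 stromal markers to 143 to 179 and 419 to 473, with 1 of 5 (Dcn) called higher. Of the 7 macrophage markers, 1 was called higher and 3 lower at 0 h, with none higher and 4 lower at 6 h, and their sum at 0 h was 342822 to 353872 in WT and 287900 to 293268 in TET iTKO. At 6 h, 3 of the 7 immature myeloid markers were called higher, as were 1 of 4 B cell and 2 of 5 stromal markers, and the stromal sum was 260 to 283 in WT and 772 to 857 in TET iTKO. None of the 5 T cell or 5 dendritic cell markers was called at 0 h, and the 3 NK cell markers were at 0 in both groups at 0 h. The part of these cells in the values of Il1b, Il1a and Il1r1 was not tested, and in bulk RNA fewer cells of a type and less RNA per cell cannot be told apart.

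Among 37 other genes of the IL-1 pathway, a list drawn up with earlier results of these data known, 8 were called higher and none lower in TET iTKO at 0 h, and 4 were called higher and none lower at 6 h. Of all genes, 3.56% were called higher and 2.54% lower at 0 h, and 2.49% and 2.58% at 6 h. The 28 detected genes of the list at 0 h had a median log2 fold change of 0.18, and the 30 at 6 h had one of 0.10, against 0.0010 and 0 over all genes. The ligand gene Il1f9, which encodes IL-36γ, an agonist of a related receptor, had 2 and 5 raw counts in WT and 55 and 81 in TET iTKO at 0 h, and 43 and 39 against 227 and 469 at 6 h. Every TET iTKO library was far above WT, with log2 fold changes of 4.50 (SE 0.64, adjusted p 4.08e-10 by DESeq2) and 2.92 (SE 0.35, adjusted p 4.05e-14 by DESeq2). Il1f6, which encodes IL-36α, had 3 and 3 raw counts in WT and 22 and 68 in TET iTKO at 6 h, and was called higher (log2 fold change 3.71, SE 1.10, DESeq2 adjusted p 0.0161).

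Of the 7 genes of processing and release, 4 were called higher at 0 h and 1 at 6 h. Nlrp3, the sensor whose complex activates caspase-1 to cleave pro-IL-1β, had log2 fold changes of 1.03 (SE 0.16, adjusted p 4.23e-08 by DESeq2) at 0 h and 0.64 (SE 0.16, adjusted p 0.00174 by DESeq2) at 6 h. Casp4, the caspase of the non-canonical inflammasome, the pore protein gene Gsdmd and the sensor gene Nlrc4 were called higher at 0 h, with log2 fold changes of 0.60, 0.49 and 0.49 (SE 0.18, 0.14 and 0.17). Of the 19 signalling genes, 3 were called higher at 0 h: Irak3, an inhibitory kinase-like protein of the pathway (0.56, SE 0.11), Nfkbia, the NF-κB inhibitor IκBα (0.51, SE 0.12), and Nfkbiz, an atypical IκB protein (0.64, SE 0.16). None of the 19 was called at 6 h. Il18rap, the accessory chain of the IL-18 receptor, was at 0 in both WT libraries at 6 h and had 12 and 13 raw counts in TET iTKO.

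Deletion of Tdg was compared in the same way. None of the 10 members was called in TDG iKO against WT at 0 h or at 6 h, and none of the detected members had an unadjusted p under 0.05. DESeq2 called 0% of the 15026 genes tested at either time, with 265 and 34 genes at an unadjusted p under 0.05, and edgeR also called 0, with 125 and 27. No detected member had groups without overlap, against 21.7% of all genes at 0 h (11.4% with TDG iKO higher) and 16.8% at 6 h (8.62%). The replicates of this cohort spread more widely than those of the Tet cohort, with a mean chi-square per gene between replicates of 37.4 to 80.6 against 10.9 to 25.2.

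Il1b had 180 and 183 normalised counts in WT and 343 and 56.6 in TDG iKO at 0 h, and 4259 and 3906 against 4224 and 4900 at 6 h. The TDG iKO libraries lay on both sides of WT at 0 h and overlapped it at 6 h, with log2 fold changes within the SE and 95% intervals of the fold of 0.478 to 2.54 and 0.493 to 2.53. For Il1r1 the interval of the fold was 0.376 to 2.32 at 0 h and 0.377 to 2.72 at 6 h. For Il1rn it was 0.272 to 5.26 at 0 h, and the libraries of replicate 1 (2752 in WT and 2252 in TDG iKO) lay below those of replicate 2 (6435 and 8706) in both genotypes. Il1a had 6 raw counts in each WT library and 6 and 46 in TDG iKO at 0 h, which was below detection, and the 95% interval of its fold at 6 h was 0.512 to 3.73. Il18 had 111 and 223 normalised counts in WT and 110 and 115 in TDG iKO at 0 h, with overlapping groups and a log2 fold change of -0.55 (SE 0.51).

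The neutrophil marker sum also varied widely in the Tdg cohort, from 452 to 1278 in WT and 166 to 3793 in TDG iKO at 0 h, and from 299 to 1765 and 255 to 3974 at 6 h, and the immature myeloid sum from 229 to 1354 and 406 to 4110 at 0 h. None of the 7 neutrophil or 7 immature myeloid markers was called between TDG iKO and WT, and the part of these cells in the spread was not tested. WT replicate 2 at 0 h was the shallowest library of the series, with 4982950 counts, and held 25 reads of Il1rap against 239 in WT replicate 1. Without WT replicate 1 at 0 h, 1 member was called (Il1rap, DESeq2 adjusted p 0.0166) and 1184 genes in all, with that shallow library as the only WT sample and assumed to vary like the other groups.

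The effects of the 2 deletions were compared directly as the TET iTKO log2 fold change minus the TDG iKO log2 fold change. At 0 h, 1 of the 10 members was called, Il1b, with a difference of 3.68 (SE 0.84, adjusted p 0.00624 by DESeq2), where 0.241% of 15753 genes were called, 0.197% higher and 0.0444% lower. The call was not made by edgeR (difference 3.68, adjusted p 0.566) nor without Tdg cohort WT replicate 2, TET iTKO replicate 2 or Tet cohort WT replicate 2 (DESeq2 adjusted p 0.330, 0.406 and 0.238). Il1r1 had a difference of 2.50 (SE 0.74, adjusted p 0.129 by DESeq2) at 0 h and 2.53 (SE 0.87, adjusted p 0.560 by DESeq2) at 6 h, and was called at 0 h without Tdg cohort WT replicate 1 or TDG iKO replicate 2 (DESeq2 adjusted p 0.000850 and 0.0408). Il1rap was called at 0 h without Tdg cohort WT replicate 1 (difference -1.61, DESeq2 adjusted p 0.00299). At 6 h no member was called, 1 had an unadjusted p under 0.05, and 0.0698% of genes were called, 0.0444% higher and 0.0254% lower. Il1f9 had a difference of 4.50 (SE 0.99, adjusted p 0.00336 by DESeq2) at 0 h.

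**Figure D2:**
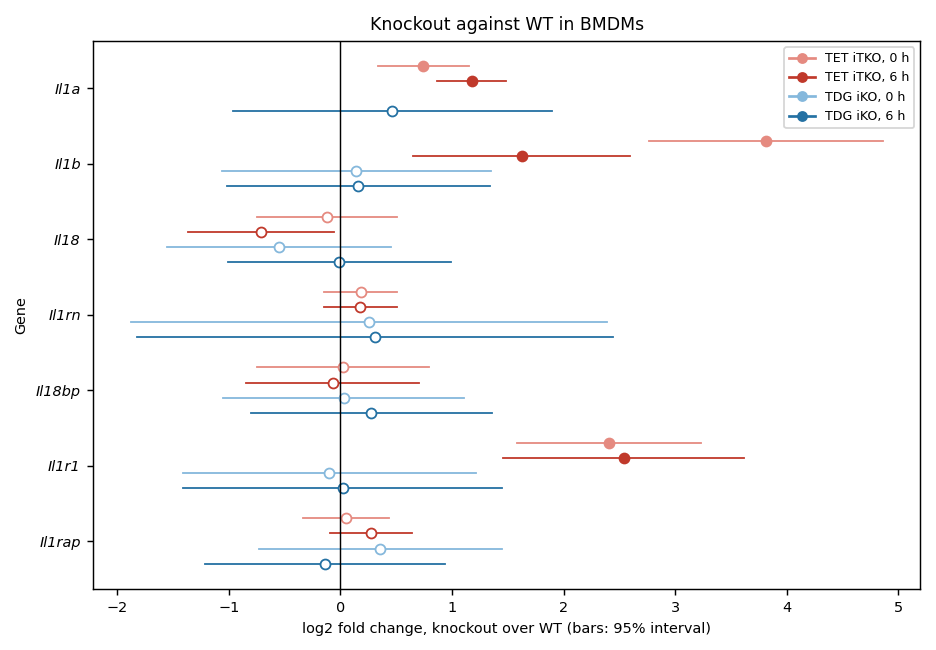
Log2 fold change of the 7 detected members in TET iTKO (red) and TDG iKO (blue) against the WT of the same cohort, with lighter colours for 0 h, darker for 6 h, bars for the 95% interval and filled points for DESeq2 adjusted p under 0.05. Il1a, Il1b and Il1r1 have filled points in TET iTKO, and no TDG iKO point is filled.

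After KLA, Il1a and Il1b were called higher in both cohorts, and in the Tet cohort Il1rn and Il1rap were also called higher and Il1r1 lower. In WT of the Tet cohort, 4 of the 10 members were called higher after 6 h and 1 lower, with 10.3% of all genes called higher and 8.73% called lower. In TET iTKO, 4 were called higher and 2 lower (9.69% and 8.76% of all genes). In the Tdg cohort, 2 members were called higher and none lower in WT (4.11% and 2.59% of all genes) and 2 were called higher and none lower in TDG iKO (3.31% and 2.16%). In the Tdg cohort 6.7% of genes were called in WT and 5.46% in TDG iKO, and in the Tet cohort 19.1% and 18.4%. Among detected members, the groups at 0 h and 6 h did not overlap for 5 in WT and 7 in TET iTKO of the Tet cohort. In the Tdg cohort they did not overlap for 4 detected members in each genotype. The shares over all genes, detected or not, were 56.8%, 54.5%, 43.6% and 41.1% in the order WT and TET iTKO, then WT and TDG iKO.

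Il1b and Il1a rose in all 4 genotype and cohort groups. Il1b rose from 26.1 and 14.6 to 1767 and 1944 in WT of the Tet cohort, a log2 fold change of 6.53 (SE 0.53, adjusted p 8.01e-33 by DESeq2) or 92.3-fold. The rise in TET iTKO was 4.34 on the log2 scale (SE 0.50, adjusted p 9.85e-17 by DESeq2) or 20.2-fold, from a higher level at 0 h and to a higher level at 6 h. The log2 fold changes in the Tdg cohort were 4.50 (SE 0.61) in WT and 4.52 (SE 0.61) in TDG iKO. Il1a had log2 fold changes of 4.35 (SE 0.19) in WT of the Tet cohort, 4.78 (SE 0.18) in TET iTKO, 6.35 (SE 0.84) in WT of the Tdg cohort and 6.04 (SE 0.76) in TDG iKO, where it rose from 6.86 and 31.0 to 495 and 2059 normalised counts. Both genes passed the threshold in each of the 11 alternatives run for each of these 4 comparisons.

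The response of Il1b to KLA in TET iTKO minus that in WT was -2.19 on the log2 scale (SE 0.73), at p 0.00261 unadjusted and 0.275 adjusted (DESeq2). With the 0 h and 6 h libraries that share a number in their deposited names paired (the labels do not say what the number marks), the difference was -2.19 and the DESeq2 adjusted p was 0.000667. It was also called without TET iTKO replicate 1 at 0 h (DESeq2 adjusted p 0.0303). No member passed with all 8 libraries and no pairing, where 0.346% of genes were called, 0.0399% higher and 0.306% lower. For the corresponding difference between TDG iKO and WT, Il1b was within the SE of 0, 0% of genes and no member were called by DESeq2 or edgeR, and 37 and 24 genes had an unadjusted p under 0.05.

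The antagonist was also called higher in the Tet cohort, with smaller fold changes than the agonists. Il1rn went from 4977 and 6745 to 7753 and 11776 in WT of the Tet cohort, without overlap, and the log2 fold change was 0.74 (SE 0.17, adjusted p 9.26e-05 by DESeq2). In TET iTKO the log2 fold change was 0.73 (SE 0.17, adjusted p 0.000100 by DESeq2). The call in WT was lost without WT replicate 2 at 6 h (DESeq2 adjusted p 0.0624) and in a fit of the 4 libraries alone (DESeq2 adjusted p 0.144), and that in TET iTKO was lost without any 1 of its 4 libraries (DESeq2 adjusted p 0.124 to 0.265). For the Tdg cohort, Il1rn had 2752 and 6435 at 0 h and 5360 and 16450 at 6 h in WT. In TDG iKO it had 2252 and 8706 at 0 h and 5154 and 21994 at 6 h. The groups overlapped, and the log2 fold changes of 1.26 (SE 1.09) in WT and 1.31 (SE 1.09) in TDG iKO were not called. In both genotypes, however, each 6 h library was above the 0 h library of the same replicate number. Same-numbered libraries of this cohort share only that number and are not known to be paired. Il1rn passed the threshold in 2 of 11 alternatives in WT and 3 of 11 in TDG iKO. Il18bp was not called in any of the 4 groups, with log2 fold changes within the SE. It was called lower in TET iTKO with the libraries paired by that number (log2 fold change -0.28, DESeq2 adjusted p 0.0373), and in WT of the Tet cohort without WT replicate 2 at 6 h (-0.74, DESeq2 adjusted p 0.00152).

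In the Tet cohort, the receptor Il1r1 fell and its accessory chain rose. In WT of the Tet cohort, Il1r1 dropped from 21 and 57 raw counts to 8 and 7, a log2 fold change of -2.06 (SE 0.56, adjusted p 0.00145 by DESeq2), and in TET iTKO from 131 and 217 to 37 and 59, a log2 fold change of -1.93 (SE 0.41, adjusted p 2.73e-05 by DESeq2). The 0 h and 6 h libraries did not overlap in either genotype, and the TET iTKO libraries at 6 h were close to the WT level at 0 h. The WT call was lost without WT replicate 2 at 0 h (DESeq2 adjusted p 0.139) and in a fit of the 4 libraries alone (DESeq2 adjusted p 0.0524). In the Tdg cohort, every library at 6 h (19.6 to 21.3 normalised counts) was below every library at 0 h (41.2 to 102), with log2 fold changes of -1.79 (SE 0.70, adjusted p 0.0996 by DESeq2) in WT and -1.67 (SE 0.69, adjusted p 0.160 by DESeq2) in TDG iKO. Il1rap had log2 fold changes of 0.63 (SE 0.19, adjusted p 0.00589 by DESeq2) in WT of the Tet cohort, where leaving out any 1 of the 4 libraries ended the call (DESeq2 adjusted p 0.0515 to 0.110), and 0.86 (SE 0.19, adjusted p 6.96e-05 by DESeq2) in TET iTKO. In WT of the Tdg cohort Il1rap had 283 and 72.5 normalised counts at 0 h and 378 and 362 at 6 h, without overlap (log2 fold change 1.04, SE 0.56, DESeq2 adjusted p 0.281). Without WT replicate 1 at 0 h, Il1rap and Il1r1 were both called there (DESeq2 adjusted p 9.46e-05 and 0.0247).

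Il18 did not follow Il1b. In TET iTKO it had 84.2 and 121 normalised counts at 0 h and 50.1 and 62.1 at 6 h, which did not overlap, and it was called lower (log2 fold change -0.88, SE 0.33, DESeq2 adjusted p 0.0348). The call was lost with the libraries paired by the number in their deposited names (DESeq2 adjusted p 0.0564) and without TET iTKO replicate 1 at 6 h, replicate 2 at 0 h or replicate 2 at 6 h (DESeq2 adjusted p 0.260, 0.457 and 0.0863). In the other 3 groups Il18 was within the SE of no change.

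**Figure D3:**
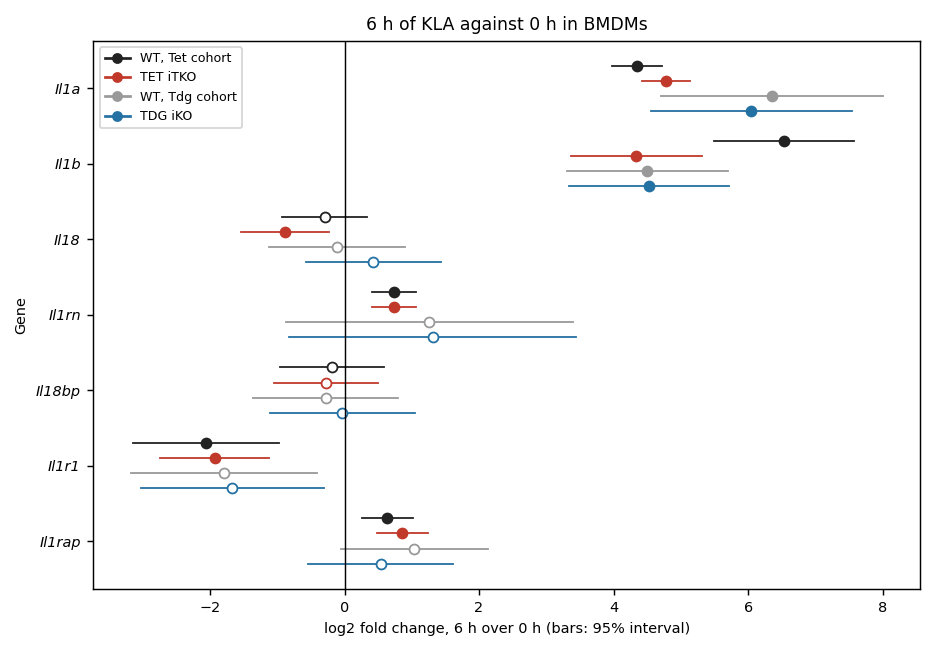
Log2 fold change at 6 h of KLA against 0 h for the 7 detected members in each genotype and cohort, with bars for the 95% interval and filled points for DESeq2 adjusted p under 0.05. Il1a and Il1b are filled in all 4 groups between 4.34 and 6.53, and Il1r1 lies below 0 in all 4 with filled points in the Tet cohort.

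Of the 37 other pathway genes, 17 were called higher and none lower after KLA in WT of the Tet cohort, 18 higher and 1 lower in TET iTKO, 11 higher and none lower in WT of the Tdg cohort and 12 higher and none lower in TDG iKO. The shares of all genes called higher and lower were 10.3% and 8.73%, 9.69% and 8.76%, 4.11% and 2.59%, and 3.31% and 2.16% in the same order. Of the 7 genes of processing and release, 5, 5, 3 and 4 were called higher, Nlrp3 among them in each group with log2 fold changes of 3.19, 2.79, 4.01 and 3.66 (SE 0.16, 0.16, 0.33 and 0.32). Il1f9 was called higher in all 4 groups as well, and the gene called lower in TET iTKO was Pycard, the inflammasome adaptor. The log2 fold changes of Il1f9 were 3.82, 2.24, 2.56 and 2.67 (SE 0.65, 0.34, 0.73 and 0.69).

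To compare genes with each other, counts were divided by exon length and scaled to a common sum in each library (TPM). In WT BMDMs of the Tet cohort at 0 h, Il18bp (398 ± 116 TPM, SD, n = 2) and Il1rn (367 ± 77.6) had the highest levels and overlapped each other. Il18 followed at 32.2 ± 6.64 TPM, then Il1a (6.90 ± 2.49), Il1rap (3.09 ± 0.15), Il1b (2.14 ± 0.86) and Il1r1 (1.04 ± 0.48), none of which overlapped its neighbour. The Il18 value depends on a short annotated model of 702 exon bases, which begins downstream of the RefSeq start. At 6 h the order in these cells was Il1rn (551 ± 154 TPM), Il18bp (315 ± 137), Il1b (176 ± 9.80) and Il1a (129 ± 13.7). In TET iTKO at 6 h, Il1b reached 594 ± 222 TPM and overlapped Il1rn (684 ± 22.01), and Il1a reached 319 ± 27.9.

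The balance of agonist to antagonist transcript was taken within each library. Per 100 TPM of Il1rn, WT libraries of the Tet cohort held 0.881 and 0.364 TPM of Il1b at 0 h and 38.3 and 27.8 at 6 h, and TET iTKO libraries held 4.45 and 10.2 at 0 h and 62.4 and 112 at 6 h. Each TET iTKO library was above both WT libraries at the same time, and 1 of them passed parity at 6 h. Parity means equal TPM and depends on the exon lengths used, 3207 bases for Il1rn and 1907 for Il1b. Comparisons of the ratio between libraries do not depend on them. In the Tdg cohort at 6 h, the ratio was 134 and 39.9 in WT and 138 and 37.5 in TDG iKO, so that replicate 1 was above and replicate 2 below parity in both genotypes. At 0 h it was 10.98 and 4.77 in WT and 25.6 and 1.09 in TDG iKO, with overlapping groups.

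**Figure D4:**
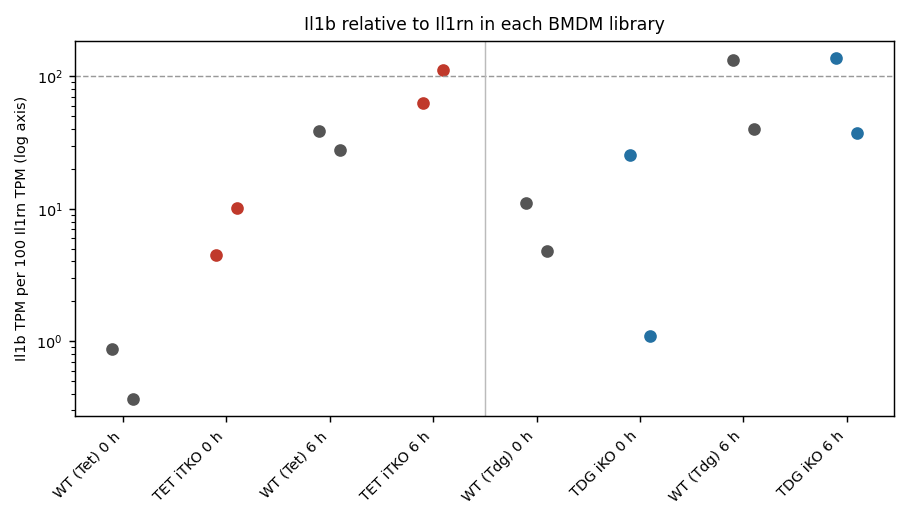
TPM of Il1b per 100 TPM of Il1rn (log axis) in each BMDM library, with 1 point per library and replicate 1 to the left of replicate 2. A dashed line at 100 marks equal TPM of the 2 genes. TET iTKO points are above the WT points of the Tet cohort at both times, and the replicates of the Tdg cohort are split across the line at 6 h.

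Over the 16 BMDM libraries, the genes whose log2 normalised counts followed Il1b most closely were sought among the 9474 others with a mean of at least 50 normalised counts. They were Cd14, the co-receptor that hands lipopolysaccharide to TLR4 (Pearson r 0.98), Siglece, an inhibitory receptor for sialic acid (0.98), Trip13, an ATPase of the mitotic checkpoint (0.97), Ptgir, the prostacyclin receptor (0.97), and Nfkbiz (0.97). Il1a ranked 656 (r 0.78), Il1rap 991 (0.70) and Il1rn 2129 (0.46) among these genes, and Il18 (-0.15) and Il18bp (-0.31) ranked 5758 and 6692. The 16 libraries are 8 at each time and share the 2 cohorts, so r describes these libraries and carries no test.

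Th2 cells held the decoy receptor transcript Il1r2 and hardly any of the ligand transcripts. Il1b was at 0 in all 8 Th2 libraries, and Il1a, Il1rn and Il33 had at most 1 read per library. In WT Th2 cells against WT BMDMs at 0 h of both cohorts, 8 of the 10 members were called, 2 higher and 6 lower, where 47.3% of the 16130 genes tested were called, 25.4% higher and 21.9% lower. Cell type, culture and preparation cannot be told apart in this comparison. Against the floor of 3 counts over the WT Th2 group, Il1b was at least 210-fold lower and Il1a at least 82.5-fold lower in Th2 cells than the mean of WT BMDMs. The WT BMDM libraries behind these means ranged from 15.4 to 196 normalised counts for Il1b and from 7.72 to 89.7 for Il1a. The bounds therefore hold for the mean and not for each library or cohort.

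Il1r2, the decoy receptor, had 740, 690, 479 and 657 raw counts in the WT Th2 libraries and 1243, 433, 408 and 304 in TDG iKO, while the 16 BMDM libraries held 0 to 10. The Th2 and BMDM libraries were wholly separate, and Il1r2 was the member with the highest TPM in Th2 cells (142 ± 77.6 in WT and 127 ± 76.2 in TDG iKO, SD, n = 3). Il1r1 remained low in Th2 cells, at 1.198 ± 0.81 TPM in WT, and was not called against BMDMs, although it was called lower without Th2 WT replicate 2 (DESeq2 adjusted p 0.0279). Il18bp had 19 to 125 raw counts in WT Th2 cells against 1081 to 5505 in WT BMDMs at 0 h, and was called lower (log2 fold change -5.96, SE 0.36, DESeq2 adjusted p 2.31e-59). Il1rap was also lower, and that call was lost without Th2 WT replicate 1 (DESeq2 adjusted p 0.0607) or Tdg cohort WT replicate 1 (DESeq2 adjusted p 0.0595).

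Il18r1, the ligand-binding chain of the IL-18 receptor, divided the Th2 libraries. It had 1 and 8 raw counts in WT replicates 1 and 2 and 302 and 367 in WT replicates 3 and 4, and 21 and 6 against 136 and 143 in TDG iKO. Replicates 3 and 4 were above replicates 1 and 2 in both genotypes. The neighbouring receptor genes on chromosome 1 were split in the same way: Il18rap had 19 and 11 against 365 and 482 raw counts in WT and 22 and 7 against 152 and 154 in TDG iKO. Il1rl1, the IL-33 receptor and a marker of Th2 cells, had 0 and 7 against 911 and 1174 raw counts in WT and 1 and 2 against 475 and 341 in TDG iKO. Il1r2 ran the other way, with 119 to 207 TPM in replicates 1 and 2 and 51.5 to 59.2 in replicates 3 and 4 over both genotypes. The list of 5 Th2 markers, Il1rl1 among them, was not split when summed. In WT it reached 8428 and 7223 normalised counts in replicates 1 and 2 and 7511 in replicates 3 and 4 taken as 1 sample. The same sums in TDG iKO were 6231, 6712 and 6422. The labels do not say how replicates 3 and 4 differed in preparation.

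Between the genotypes, none of the members was called in TDG iKO against WT Th2 cells, none of the 5 detected members had an unadjusted p under 0.05, and none had groups without overlap (3.45% of all genes, 1.79% with TDG iKO higher). DESeq2 and edgeR called 0% of genes, with 77 and 55 genes at an unadjusted p under 0.05. With same-numbered samples paired, DESeq2 called 15 genes and again no member. All 5 detected members had log2 fold changes within the SE. The 95% interval of the fold was 0.404 to 2.17 for Il1r2, 0.309 to 1.85 for Il1r1 and 0.644 to 1.81 for Il1rap, and 0.0800 to 8.48 for Il18r1.

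**Figure D5:**
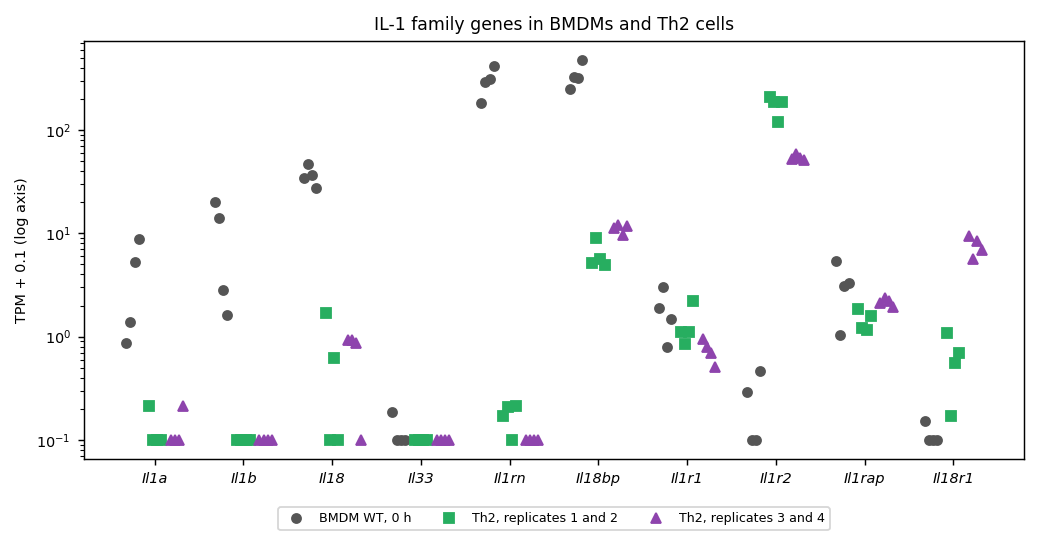
TPM plus 0.1 (log axis) of the 10 members in WT BMDMs at 0 h (4 libraries) and in Th2 cells of both genotypes, split into replicates 1 and 2 and replicates 3 and 4 (4 libraries each). Il1a, Il1b, Il18, Il1rn and Il18bp are higher in BMDMs, Il1r2 is higher in Th2 cells, and Il18r1 is high in Th2 replicates 3 and 4.

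Antisense transcripts overlap Il1a, Il1b, Il1r2 and Il1rap in the annotation, and the strand setting of the counting is not given in the sources used here, so reads of these pairs may not have been told apart. Il33, a ligand of Il1rl1, had at most 3 reads in any library and is given as counts only.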

How the data were processed

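The deposited files hold raw read counts per gene symbol (23420 genes), which the authors made per the labels and methods with HISAT2 on mm9 and HTSeq from directional libraries. The 5 tallies of unassigned reads (32.8% to 51.6% of each library) were left out. The 10 members and all lists were chosen with earlier results of these data known. Groups were compared with DESeq2 1.42.0 (Wald test, Benjamini-Hochberg adjusted p under 0.05, R 4.3.3), fitted on all genes within each cohort, over both cohorts for differences of effects, and on 3 samples of each genotype for Th2 cells. Alternatives were edgeR 4.0.16 (quasi-likelihood), its robust dispersions (chosen after seeing the data), TMM factors, a filter on low counts, replicate blocks and leaving out each library. A fold change was printed for detected members where it exceeded its SE. TPM used the exon lengths of 21259 symbols (GENCODE vM1, mm9), which held 88.7% to 97.5% of counts. Pairing was checked by the correlation of same-numbered deviations over genes: 0.54 to 0.93 for the 3 Th2 pairs, and 0.45 and 0.46 for the 0 h and 6 h libraries of the Tet cohort, whose deposited names also share a number that the labels do not explain. The scripts were tested on simulated data.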

Additional observations from a re-analysis of the deposited data

Results flagged for a closer look

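The effect of deletion on Il1b at 0 h differed between the cohorts by the test of the difference itself: the TET iTKO effect minus the TDG iKO effect was 3.68 on the log2 scale (SE 0.84, DESeq2 adjusted p 0.00624). Normalised counts were 26.1 and 14.6 in WT and 186 and 381 in TET iTKO, and 180 and 183 in WT and 343 and 56.6 in TDG iKO. Over 13 alternatives the difference ran from 2.90 to 5.51, and 8 of them kept the call.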

How the results depend on the processing

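With 2 libraries in a group, 1 library could decide a call. Leaving out each library in turn gave 3 to 4 called members for KLA in WT of the Tet cohort, 4 to 5 in TET iTKO, 2 to 4 in WT of the Tdg cohort and 2 to 3 in TDG iKO, 0 to 1 for the difference in KLA response in the Tet cohort and for TDG iKO against WT at 0 h, and 0 to 3 for the TET effect minus the TDG effect at 0 h. A fit of the 4 libraries alone called 3 members for KLA in WT of the Tet cohort. For the difference of effects at 0 h, edgeR and edgeR with robust dispersions called 0 members and a replicate block called 2. The nested replicate block called 1 member (Il1b) for the difference in KLA response in the Tet cohort. In the Tdg cohort same-numbered samples share only a number (correlation 0.32 at 0 h and 0.80 at 6 h between genotypes). Between 0 h and 6 h, the correlation was 0.36 in WT and 0.81 in TDG iKO of that cohort. With a replicate block 5 members, or 4 with the block nested in genotype, were called there for KLA in WT. The block changed no other number of called members by over 1.5 times, and called no member in Th2 cells. Fold changes of uncalled members changed sign without 1 library. With each library left out, the log2 fold change of Il1rn in TET iTKO ran from -0.023 to 0.41 at 0 h and from -0.094 to 0.51 at 6 h, that of Il1rn after KLA in TDG iKO from -0.068 to 2.58, the Il1a difference in KLA response in the Tet cohort from -0.018 to 0.74, and that of Il18 in TDG iKO at 0 h from -0.99 to 0.018. The libraries behind the sign changes were WT replicate 1 at 0 h and at 6 h, TDG iKO replicate 2 at 6 h, Tet cohort WT replicate 2 at 0 h and Tdg cohort WT replicate 2 at 0 h. Il1rn after KLA in TDG iKO was called without TDG iKO replicate 2 at 0 h (DESeq2 adjusted p 0.0429). Counts over all genes moved more. Leaving out 1 library took the 916 genes called in TET iTKO at 0 h to as few as 280 and the 762 at 6 h to as few as 262. The 1006 and 821 genes called for KLA in WT and TDG iKO of the Tdg cohort became 413 and 346 in edgeR and 1805 and 1373 with the replicate block. The 52 genes of the KLA difference in the Tet cohort became 1 in edgeR and 224 with the nested block, and the 38 and 11 genes of the TET effect minus the TDG effect became 0 and 1 in edgeR and 182 and 101 with the block, and the 38 became 2409 without Tdg cohort WT replicate 1 at 0 h. Refits were tallied only for detected members whose log2 fold change exceeded its SE, where the refit gave an adjusted p. Over all alternatives, 495 of these refitted fold changes kept their direction and side of the threshold, 33 lost the call, 17 gained one and 5 changed sign. Il1a at 0 h and Il1r1 rest on few counts, as does Il1b in WT of the Tet cohort at 0 h (31 and 24 raw counts).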
